A study of Mus musculus with 2 samples.

Results

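The transcripts described here come from 34 genes of the kidney tubule, matched by symbol to the gene names of the count matrices, where all of them were present among 32285 genes. They comprise 11 proximal tubule transporters and endocytic receptors, 11 proximal tubule enzymes, the proximal genes Gpx3 and Kap, 6 genes of the loop of Henle and distal tubule, 2 genes of the collecting duct and 2 markers of tubule injury. The material was mouse kidney of strain B6 with aristolochic acid nephropathy (AAN CKD in the labels), a chronic disease in which a plant toxin damages the proximal tubule. The time label gives week 2, whereas the title of the sample names both W1 and W2 and a single mouse. Viable cells stained for CD45, the surface protein that nearly all leukocytes share, were sorted by flow cytometry after enzymatic digestion and captured with the 3' Chromium chemistry, which tags each captured RNA molecule with a unique molecular identifier (UMI). A single capture held 2 hashed samples, told apart by antibody-borne barcodes, and the labels do not settle whether these differed in week or came from separate animals. Untreated kidneys were not part of the material analysed, and every comparison is between kinds of droplet from the same diseased kidneys, and the hashed samples share all processing after pooling.

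Each stretch of the nephron carries its own set of transport proteins. The proximal tubule reclaims phosphate, glucose, organic acids and filtered protein, makes glucose and arginine, and releases the plasma glutathione peroxidase encoded by Gpx3. The thick ascending limb makes uromodulin and reabsorbs salt through Slc12a1, the distal convoluted tubule does so through Slc12a3, and the collecting duct reabsorbs water through Aqp2. Leukocytes are not a known source of most of these transcripts. In a sort on CD45 they can reach a leukocyte droplet as free RNA, with a tubule cell in the same droplet, or inside a cell that has engulfed a tubule cell. The part of each of these in the values below was not tested.

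Droplets were assigned by markers that include none of the 34 genes. A droplet was called tubule-like when 60 other genes of renal epithelium together reached 50 UMIs per 10000 UMIs with at least 5 of the genes present. Among the rest, macrophage-gated droplets had at least 100 UMIs of C1qa, C1qb and C1qc per 10000, and T-gated droplets had at least 3 UMIs of 6 T cell genes and under 50 C1q UMIs per 10000. After filtering, 6556 of 7015 barcodes remained. Of these, 40 and 45 were tubule-like in hashed samples 1 and 2, 1072 and 1633 were macrophage-gated, 173 and 332 dendritic-gated, 142 and 153 monocyte-gated, and 945 and 471 T-gated, while 660 and 784 met no gate. Median depths over both hashed samples were 9485 UMIs in tubule-like, 6613 in macrophage-gated and 3660.5 in T-gated droplets. Where a pair of values follows, hashed sample 1 is the first of the pair. The intervals are exact 95% intervals, which cover counting error and say nothing of differences between animals.

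Tubule-like droplets were rich in the 34 transcripts, at 167 (163 to 171) and 155 (152 to 159) UMIs per 10000. Macrophage-gated droplets held 4.94 (4.78 to 5.11) and 4.92 (4.79 to 5.04) per 10000, and T-gated droplets 3.72 (3.55 to 3.89) and 4.50 (4.21 to 4.80). A mean tubule-like droplet thus carried 164.5 and 174 member UMIs, against 3.34 and 3.59 in macrophage-gated and 1.97 and 1.95 in T-gated droplets. Single tubule-like droplets ranged from 22.9 to 510.1 per 10000 around a median of 180.5 in hashed sample 1, and from 6.97 to 509.6 around a median of 162 in hashed sample 2. The gate was set on other renal genes of the same segments, so this excess is a description. Gate borders were populated: 21 tubule-like droplets lay between 50 and 75 renal UMIs per 10000, and 138 kept droplets between 20 and 50.

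The same droplets also carried leukocyte RNA. The CD45 gene Ptprc stood at 238.5 and 208.5 CPM (the usual depth-scaled count, here over the summed UMIs of a gate) in tubule-like droplets, against 304.7 and 350.4 CPM in macrophage-gated and 759 and 876 CPM in T-gated droplets. C1qa stood at 561 and 1608 CPM in tubule-like droplets, against 7012 and 6736 CPM in macrophage-gated and 134 and 163 CPM in T-gated droplets. These sums hide a spread between droplets. The 3 C1q genes summed to 15.2 and 46.2 UMIs per 10000 in tubule-like droplets, but the median droplet held 4.25 and 35.2. In T-gated droplets that median was 3.36 and 4.65, so in hashed sample 1 the median tubule-like droplet was near it. A list of 6 leukocyte genes reached 18.5 and 27.4 UMIs per 10000 in tubule-like droplets, below the 65.5 and 72.0 of macrophage-gated and the 32.8 and 33.9 of T-gated droplets. Of the 85 tubule-like droplets, 9 met the C1q level of the macrophage gate, 17 held at least 3 UMIs of the T cell list, and 6 held no UMI of the leukocyte list. Median doublet scores were 0.0739 and 0.0801 in tubule-like, 0.0462 and 0.0494 in macrophage-gated and 0.0237 and 0.023 in T-gated droplets, and median mitochondrial shares were 4.12% and 3.49%, 2.17% and 2.17%, and 2.11% and 2.00%. Lists of endothelial, fibroblast, podocyte and erythroid genes were each at 0.1 UMIs per 10000 or less in tubule-like droplets. Whether these droplets are tubule cells with adhering leukocyte RNA, doublets or engulfing cells was not tested.

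Of the 34 members, 23 were measured against macrophage-gated droplets, that is, reached 50 CPM or more in one of the gates in each hashed sample. A gene was called when both hashed samples differed in the same direction by 1.5-fold or more, with 10 CPM added to both sides. By this rule 22 were higher in tubule-like droplets and none was lower, whereas 24.9% of all 3258 genes measured were higher and 16.2% lower. The median log2 ratio of the measured members was 4.51 and 4.10, against 0.16 and 0.08 over all genes measured. Scaling by TMM factors, which trims extreme genes, moved the median of all genes to −0.47 and −0.38 and the share of higher among called genes to 28.7%, against 60.5% on total UMIs, and left 20 members higher. Against T-gated droplets all 23 measured members were higher, at medians of 4.63 and 3.60, where 28.6% of all genes were higher and 21.8% lower. The count of measured members cannot stand for all 34, since most entered through their level in tubule-like droplets. The other 11 were Slc22a6, Slc22a12, Slc13a3, Slc7a13, Hpd, Dpys, Kap, Slc12a3, Calb1, Aqp2 and Havcr1.

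**Figure D1:**
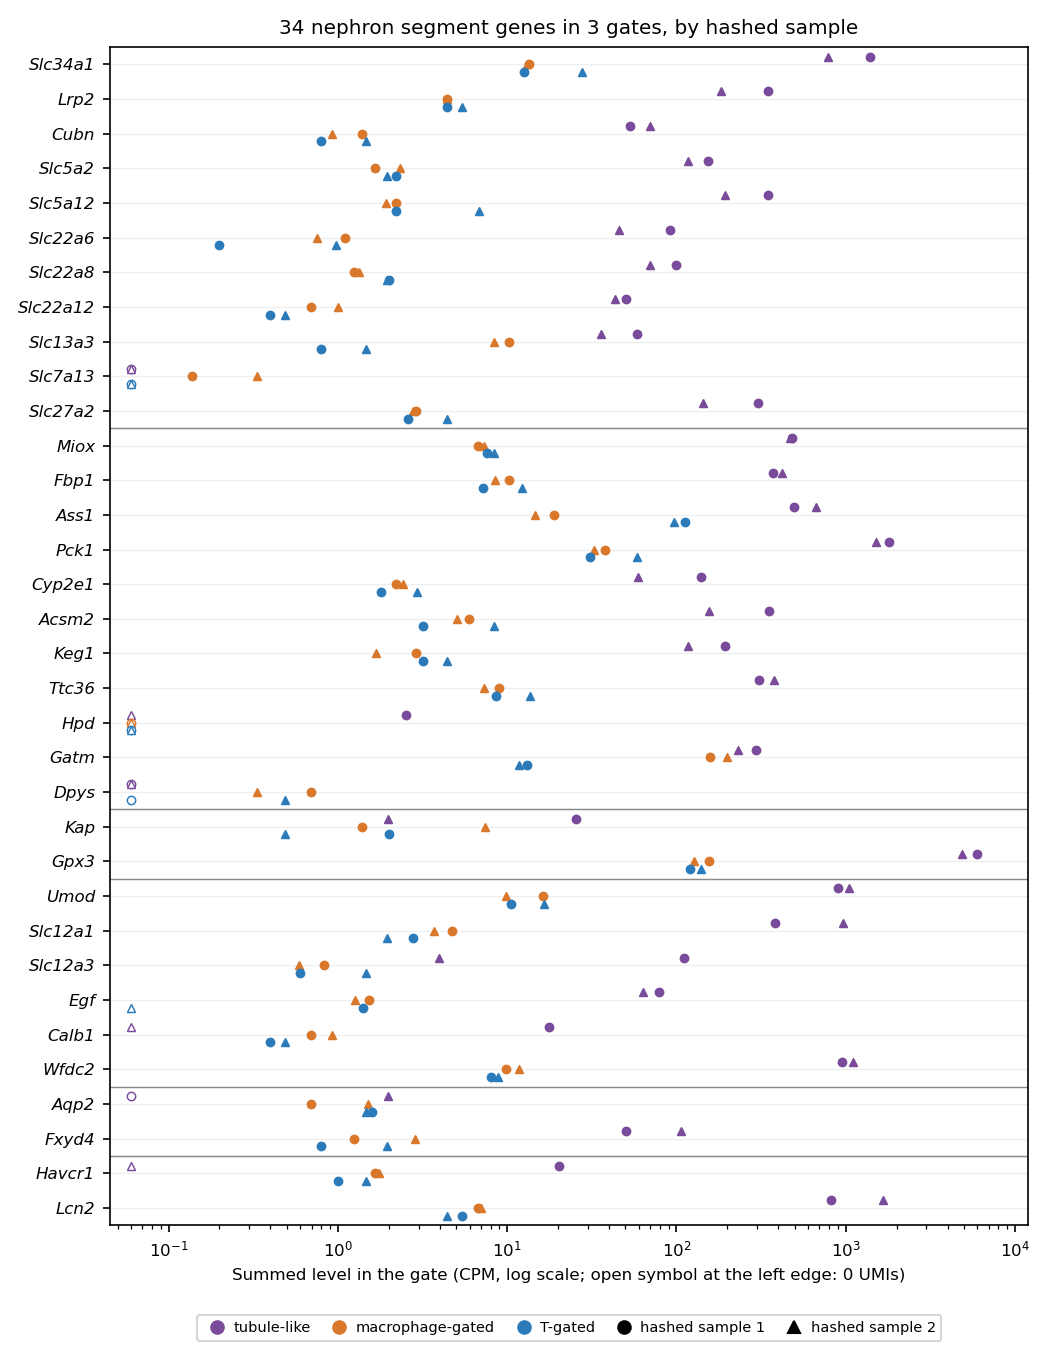
Summed level of each of the 34 genes in CPM, on a log axis, in tubule-like, macrophage-gated and T-gated droplets, with circles for hashed sample 1, triangles for hashed sample 2 and open symbols for 0 UMIs. Most members lie far to the right in tubule-like droplets, while the macrophage-gated values of Gatm (158 and 199 CPM) come close to its tubule-like values (294 and 230.4 CPM).

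Among transporters and endocytic receptors, 7 of 11 genes were measured and all 7 were higher in tubule-like than in macrophage-gated droplets, at median log2 ratios of 4.61 and 3.58. Slc34a1, the sodium-phosphate cotransporter of the proximal brush border, stood at 1401 and 790.3 CPM in tubule-like droplets, against 13.4 and 13.2 CPM in macrophage-gated and 12.6 and 27.9 CPM in T-gated droplets. Of its 57 UMIs in T-gated droplets of hashed sample 2, 20 came from 1 droplet. Lrp2, the endocytic receptor megalin, stood at 348 and 185 CPM in tubule-like, 4.42 and 4.44 CPM in macrophage-gated and 4.40 and 5.38 CPM in T-gated droplets. Its partner Cubn was at 53.3 and 69.5 CPM in tubule-like droplets and below 2 CPM in both leukocyte gates. Both receptors were therefore low but present outside the tubule-like gate.

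The solute carriers followed the same order. Slc5a2, which takes up glucose with sodium, was at 155 and 117 CPM in tubule-like, 1.66 and 2.35 CPM in macrophage-gated and 2.20 and 1.96 CPM in T-gated droplets. Slc5a12, a carrier of lactate and other monocarboxylates, was at 350.2 and 195 CPM in tubule-like, 2.21 and 1.93 CPM in macrophage-gated and 2.20 and 6.85 CPM in T-gated droplets. Slc27a2, which takes up and activates fatty acids, was at 304 and 143 CPM in tubule-like, 2.90 and 2.76 CPM in macrophage-gated and 2.60 and 4.40 CPM in T-gated droplets. The highest of these values in either leukocyte gate was the 6.85 CPM of Slc5a12. The organic anion carriers Slc22a6 and Slc22a8 and the urate carrier Slc22a12 ranged from 43.7 to 99.0 CPM in tubule-like droplets and stayed at or under 2.00 CPM in both leukocyte gates. Slc7a13, an amino acid transporter, had 0 UMIs in tubule-like droplets and 5 in all kept droplets, each in a macrophage-gated droplet.

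Slc13a3, a dicarboxylate carrier, had another pattern and was singled out after its values were seen. It stood at 58.4 and 35.7 CPM in tubule-like droplets, 10.2 and 8.38 CPM in macrophage-gated droplets (74 and 100 UMIs) and 0.800 and 1.47 CPM in T-gated droplets (4 and 3 UMIs). Monocyte-gated droplets held it at 2.23 and 3.61 CPM and dendritic-gated droplets at 6.54 and 5.26 CPM. It missed the minimum of 50 CPM for any comparison between leukocyte gates.

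Of the enzymes, 9 of 11 were measured, and 8 were higher in tubule-like than in macrophage-gated droplets, with medians of 4.12 and 4.48 over all 9. Pck1, which commits carbon to gluconeogenesis, stood at 1809 and 1503 CPM in tubule-like, 38.0 and 32.7 CPM in macrophage-gated and 31.0 and 58.2 CPM in T-gated droplets. Fbp1, a later step of the same pathway, was at 373 and 419 CPM in tubule-like, 10.2 and 8.46 CPM in macrophage-gated and 7.198 and 12.2 CPM in T-gated droplets. Miox, which opens the inositol ring, was at 485 and 467 CPM in tubule-like, 6.77 and 7.29 CPM in macrophage-gated and 7.60 and 8.32 CPM in T-gated droplets. None of the 3 reached 50 CPM in both hashed samples of either leukocyte gate.

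Acsm2, an acyl-CoA synthetase, was at 353 and 155 CPM in tubule-like, 5.94 and 5.03 CPM in macrophage-gated and 3.20 and 8.32 CPM in T-gated droplets. Keg1 was at 193 and 117 CPM in tubule-like, 2.90 and 1.68 CPM in macrophage-gated and 3.20 and 4.40 CPM in T-gated droplets. Ttc36 was at 309.6 and 375 CPM in tubule-like, 8.98 and 7.29 CPM in macrophage-gated and 8.60 and 13.7 CPM in T-gated droplets. Cyp2e1, a cytochrome P450, did not reach the naming limit of 100 CPM in hashed sample 2, with 139.6 and 59.6 CPM in tubule-like droplets and under 3 CPM in both leukocyte gates. Hpd, of tyrosine breakdown, and Dpys, of pyrimidine breakdown, were nearly silent: Hpd had 2 UMIs in all kept droplets, 1 of them in a tubule-like droplet, and Dpys had 37, none of them in a tubule-like droplet. Thus 2 of the 11 enzymes of the list could not be followed. Gatm and Ass1, the remaining enzymes, are taken up separately.

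Gpx3 supplied 35.8% and 31.4% of all member UMIs in tubule-like droplets. It stood at 5981 and 4873 CPM there, against 157 and 127 CPM in macrophage-gated, 89.0 and 137 CPM in monocyte-gated, 103 and 122 CPM in dendritic-gated and 121 and 140.4 CPM in T-gated droplets. The leukocyte gates overlapped with each other, and the log2 ratio of tubule-like over macrophage-gated droplets was 5.17 and 5.16. Kap, an androgen-regulated kidney gene, was low, at 25.4 and 1.99 CPM in tubule-like and 1.38 and 7.37 CPM in macrophage-gated droplets.

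All 4 measured genes of the loop and distal tubule were higher in tubule-like than in macrophage-gated droplets, at medians of 4.92 and 5.71. Umod, which encodes uromodulin, stood at 896 and 1050.5 CPM in tubule-like, 16.3 and 9.80 CPM in macrophage-gated and 10.6 and 16.6 CPM in T-gated droplets. Of its 118 UMIs in macrophage-gated droplets of hashed sample 1, 24 came from 1 droplet. Slc12a1, the sodium-potassium-chloride cotransporter, was at 381 and 961 CPM in tubule-like, 4.70 and 3.69 CPM in macrophage-gated and 2.80 and 1.96 CPM in T-gated droplets. Wfdc2, a secreted protein of the distal nephron, was at 954 and 1100.1 CPM in tubule-like, 9.81 and 11.8 CPM in macrophage-gated and 7.998 and 8.81 CPM in T-gated droplets. A single droplet held 54 of its 141 UMIs in macrophage-gated droplets of hashed sample 2. Egf was at 78.7 and 63.5 CPM in tubule-like droplets and under 2 CPM in both leukocyte gates.

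Slc12a3 and Calb1 rested on single droplets. Slc12a3, the sodium-chloride cotransporter of the distal convoluted tubule, was at 112 and 3.97 CPM in tubule-like droplets, and 2 droplets of hashed sample 1 held 23 and 19 of its UMIs. Calb1, a calcium-binding protein, was at 17.8 and 0 CPM, with all 7 UMIs in 1 droplet. In the collecting duct, Fxyd4, which regulates the sodium pump, was at 50.7 and 107 CPM in tubule-like and under 3 CPM in macrophage-gated and T-gated droplets. Aqp2, the regulated water channel, was found as 1 UMI in each of 48 droplets, of which 1 was tubule-like and 23 were macrophage-gated. Loop genes were thus better represented in these droplets than genes of the distal convoluted tubule or the collecting duct.

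Of the injury markers, Lcn2, which damaged tubules and neutrophils both make, stood at 817 and 1670.05 CPM in tubule-like, 6.77 and 7.04 CPM in macrophage-gated and 5.40 and 4.40 CPM in T-gated droplets. A pair of droplets held 312 and 275 of its 841 UMIs in tubule-like droplets of hashed sample 2, and 1 droplet held 121 of the 322 in hashed sample 1. In the 10 and 14 neutrophil-gated droplets it stood at 1490.1 and 800.1 CPM and made up 25 of 41 and 17 of 38 member UMIs. Neutrophil-gated droplets had the highest member sum of the leukocyte gates, at 24.4 (17.5 to 33.2) and 17.9 (12.7 to 24.5) per 10000, and still held 9.54 and 9.88 per 10000 without Lcn2. The 60 renal genes of the tubule-like gate stood at 8.94 and 7.53 per 10000 in these few shallow droplets. Havcr1, which encodes the proximal injury marker KIM-1, was at 20.3 and 0 CPM in tubule-like droplets and at or under 1.76 CPM in macrophage-gated and T-gated droplets.

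The tubule-like droplets fell into a proximal and a distal kind. By the independent renal lists, 30 and 32 were of proximal type and 10 and 13 of distal type. Members of the proximal roles made up over 90% of the proximal and distal member UMIs in 61 of the 85 droplets, 60 of them of proximal type, and under 10% in 22, of which 21 were of distal type. Only 2 droplets lay between. Proximal type droplets held 193 (188 to 198) and 186 (181 to 191) member UMIs per 10000, and distal type droplets 105 (98.7 to 111) and 116 (111 to 120.2). Of 26 members measured, 20 were higher and 6 lower in proximal type droplets, where 12.3% and 12% of all genes measured were higher and lower.

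The types were set by lists of other proximal and distal genes, and most members were measured only through the type in which they were high, so the counts by role are a description. All 10 measured transporters were higher in proximal type droplets, at medians of 4.21 and 3.95, and all 9 measured enzymes, at 5.21 and 4.45. Gpx3 stood at 8398 and 8604 CPM in proximal type droplets and 122 and 54.6 CPM in distal type droplets. Slc34a1 stood at 1978 and 1402 CPM in proximal type droplets, and no UMI of it was found in distal type droplets. Relative to its proximal level, Ttc36 was the named proximal gene with the most left in distal type droplets, at 409 and 557 CPM in proximal type and 69.5 and 141 CPM in distal type droplets.

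The 4 measured loop and distal genes were lower in proximal type droplets, at medians of −5.45 and −6.02, and Fxyd4 and Lcn2 went with them. Umod stood at 14.3 and 3.52 CPM in proximal type and 3032 and 2403 CPM in distal type droplets. Slc12a1 stood at 3.58 and 31.7 CPM in proximal type and 1295 and 2162 CPM in distal type droplets. Wfdc2 was less separated in hashed sample 1, at 437 and 21.1 CPM in proximal type and 2207 and 2494 CPM in distal type droplets. Lcn2, at 7.17 and 17.6 CPM in proximal type and 2780.2 and 3804 CPM in distal type droplets, was almost wholly a distal transcript here. Havcr1 was at 25.1 and 0 CPM in proximal type and 8.69 and 0 CPM in distal type droplets.

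**Figure D2:**
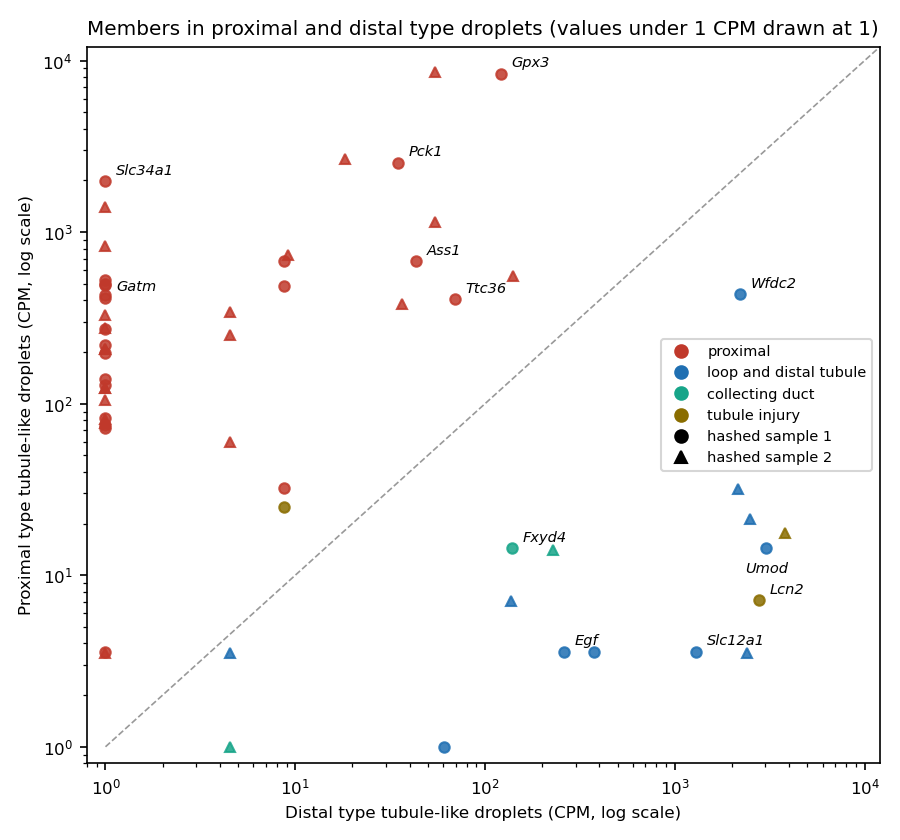
Level of each member in proximal type (vertical axis) and distal type (horizontal axis) tubule-like droplets, in CPM on log axes, coloured by segment, with circles for hashed sample 1 and triangles for hashed sample 2; the dashed line marks equal levels. Proximal genes such as Gpx3 (8398 against 122 CPM in hashed sample 1) lie above the line, and Umod, Slc12a1, Wfdc2, Fxyd4 and Lcn2 lie below it in both hashed samples.

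Between the hashed samples, tubule-like droplets varied more than the leukocyte gates. Of 27 members measured there, 3 were at least 1.5-fold higher and 9 at least 1.5-fold lower in hashed sample 2, while 22% of all genes measured in these droplets passed that fold in either direction. In macrophage-gated droplets neither of 2 measured members passed it, against 2.83% of all genes. In T-gated droplets 1 of 3 did, against 2.24% of all genes. That 1 was Pck1, at 31.0 and 58.2 CPM, which was measured only through hashed sample 2, where it was high. The count of 1 of 3 is therefore a description. Slc34a1, Slc5a12, Slc27a2 and Acsm2 were each lower in hashed sample 2 and Slc12a1 and Lcn2 higher. With 85 tubule-like droplets in all, these levels depend on which droplets were caught.

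Apart from the neutrophil gate, the leukocyte gates held the members at a low rate. Per 10000 UMIs, monocyte-gated droplets held 4.11 (3.70 to 4.55) and 4.33 (3.89 to 4.80), dendritic-gated droplets 3.24 and 3.27, NK-gated droplets 2.25 and 3.17, B-gated droplets 6.73 (4.51 to 9.67) and 6.18 (4.33 to 8.56), and ungated droplets 5.08 and 4.26. The NK gate had only 19 and 10 droplets and the B gate 22 and 23. B-gated droplets were shallow, at medians of 1743 and 1870 UMIs, and held a mean of 1.32 and 1.57 member UMIs. The sum in macrophage-gated over that in T-gated droplets was 1.33 and 1.09 by hashed sample, and 1.25 (1.20 to 1.30) over both. With the tubule-like gate raised to 100 renal UMIs per 10000 it was 1.00. A member UMI was seen in 90.6% and 92.8% of macrophage-gated and 79.9% and 79.8% of T-gated droplets as sequenced. With each droplet thinned to 1000 UMIs, the shares were 40.1% and 36.1% in macrophage-gated and 36.4% and 39.1% in T-gated droplets, so that the order of the gates differed between hashed samples.

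Leaving out Gatm and Ass1 moved the sums unequally in the hashed samples. Without them, the other 32 members came to 3.18 (3.05 to 3.31) and 2.78 (2.69 to 2.88) per 10000 in macrophage-gated and 2.46 (2.33 to 2.60) and 3.41 (3.16 to 3.67) in T-gated droplets, and to 159 and 146 in tubule-like droplets. Over both hashed samples the ratio of macrophage-gated to T-gated droplets was then 1.07 (1.02 to 1.13), and its direction differed between them, at 1.29 and 0.815. Counted per droplet, the direction did not differ, at means of 2.14 and 2.03 UMIs of the 32 in macrophage-gated against 1.30 and 1.48 in T-gated droplets. Median depths were 6291 and 6903 against 3827 and 3392 UMIs, and the rate of the 32 fell with depth in both gates (below). The part of depth in the ratio was not tested. At 1000 UMIs per droplet, 26.2% (23.5 to 28.9) and 25.9% (23.8 to 28.1) of macrophage-gated and 27.0% (24.2 to 30.0) and 28.9% (24.8 to 33.3) of T-gated droplets held at least 1 UMI of the 32. Droplets too shallow to thin numbered 25 and 28 in the macrophage gate and 8 and 11 in the T gate. The 60 renal genes of the gate, which include no member, stood at 2.95 and 2.77 per 10000 in macrophage-gated and 2.04 and 2.71 in T-gated droplets, against 107 and 124 in tubule-like droplets. In hashed sample 1 the renal list and the 32 members were both higher in macrophage-gated than in T-gated droplets. In hashed sample 2 the renal list was nearly level between the gates per 10000 UMIs, while the 32 members were lower in macrophage-gated droplets by that rate. The part of other renal RNA in the member sum was not tested.

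Each member can also be read as a share of its own level in tubule-like droplets. For the 23 measured members the median share was 1.58% and 1.94% in macrophage-gated, 1.35% and 2.43% in monocyte-gated, 0.934% and 1.40% in dendritic-gated and 1.501% and 2.91% in T-gated droplets. In macrophage-gated droplets the 21 members other than Gatm and Ass1 spanned 0.631% to 2.90% in hashed sample 1 and 0.384% to 4.08% in hashed sample 2, and 19 of them lay within 3-fold of the median in both. In T-gated droplets they spanned 0.628% to 2.78% and 0 to 5.37%, with 17 of 21 within 3-fold. The rarest per tubule-like UMI in macrophage-gated droplets differed between the hashed samples. In hashed sample 1 they were Slc5a12, at 0.631%, and Lcn2, at 0.828%. In hashed sample 2 they were Slc12a1, at 0.384%, and Lcn2, at 0.421%, where Slc12a1 had been at 1.23% in hashed sample 1. Gatm and Ass1 stood far outside these ranges in some gates. They were set apart by this same ratio, so the ranges without them follow in part from that choice.

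**Figure D3:**
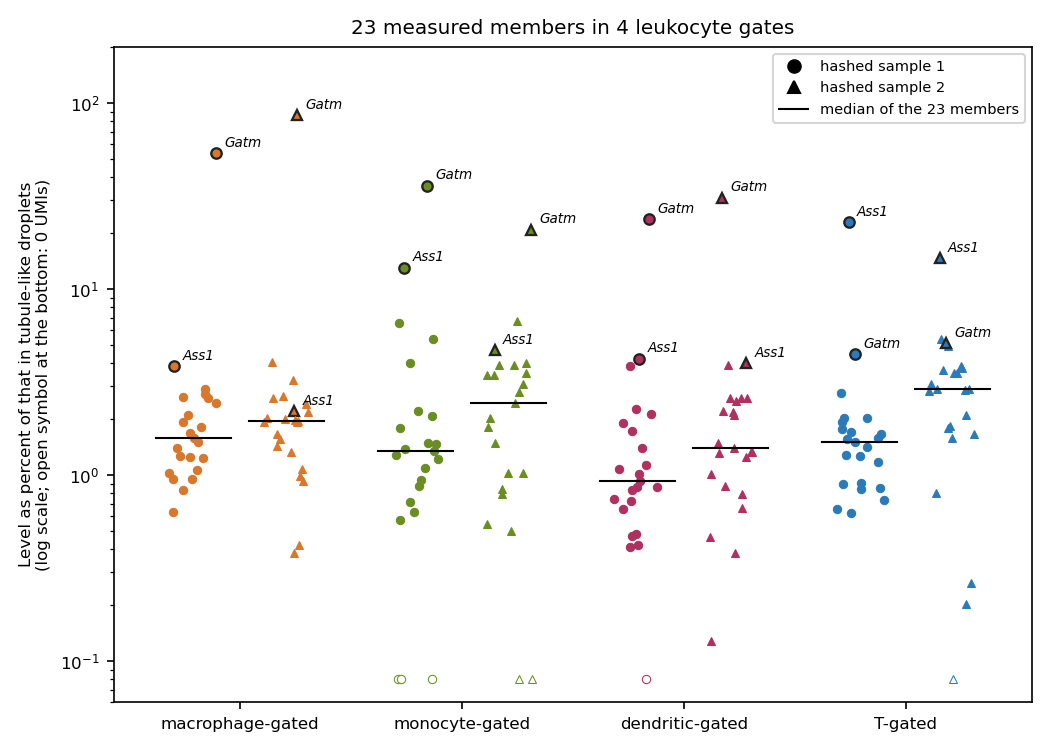
Level of each of the 23 measured members in macrophage-gated, monocyte-gated, dendritic-gated and T-gated droplets as a percent of its level in tubule-like droplets, on a log axis, with a bar at the median of each hashed sample (circles 1, triangles 2). Gatm in macrophage-gated droplets (53.6% and 86.5%) and Ass1 in T-gated droplets (22.8% and 14.6%) lie well above the medians of 1.58% and 1.94% and of 1.501% and 2.91%.

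Across the members, log2 levels in the leukocyte gates followed those in tubule-like droplets. Pearson's r over the 34 genes was 0.731 and 0.666 for macrophage-gated and 0.748 and 0.767 for T-gated droplets, with Spearman's rho of 0.857 and 0.781 and of 0.887 and 0.874. Without Gatm and Ass1 r was 0.796 and 0.733 for macrophage-gated and 0.798 and 0.779 for T-gated droplets. These genes were left out because they departed from the relation, so the higher r follows in part from that choice. The points are genes of the same capture, not replicates, and many share a level near 0, so these values describe the libraries only.

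Gatm, the enzyme of the first step of creatine synthesis, differed least between tubule-like and macrophage-gated droplets among the 23 measured members. It stood at 294 (243 to 353) and 230.4 (190 to 276) CPM in tubule-like droplets, 158 (149 to 167) and 199 (191 to 207) CPM in macrophage-gated, 106 and 48.1 CPM in monocyte-gated, 70.0 and 71.5 CPM in dendritic-gated and 13.2 (10.2 to 16.8) and 11.7 (7.52 to 17.5) CPM in T-gated droplets. The log2 ratio of tubule-like over macrophage-gated droplets, 0.86 and 0.20, did not reach 1.5-fold in hashed sample 2. Gatm was 31.9% and 40.5% of all member UMIs in macrophage-gated droplets. Among leukocyte gates the levels were ordered macrophage-gated, then monocyte-gated or dendritic-gated, which exchanged places between the hashed samples, and then T-gated.

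By the fold rule Gatm was higher in macrophage-gated than in T-gated droplets, with log2 ratios of 2.85 and 3.27. It was the 1 member of 3 measured to be so, where 21.4% of all genes measured were higher and 23.5% lower. The median of all genes here was −0.25 and −0.18, and TMM factors moved it to −0.03 and 0.08 and the share of higher among called genes to 63.8%, against 47.6%, without changing the call of Gatm or Ass1. Gatm was also higher than in dendritic-gated droplets, at 1.07 and 1.36, as 1 of 2 measured members, where 14.1% of all genes were higher and 9.6% lower. Against monocyte-gated droplets neither Gatm nor Gpx3 passed the rule, where 7.14% of all genes were higher and 7.57% lower. After thinning to 1000 UMIs, Gatm was found in 15.8% and 14.0% of tubule-like, 14.6% and 17.4% of macrophage-gated, 7.09% and 3.95% of monocyte-gated, 5.23% and 6.38% of dendritic-gated and 1.49% and 0.652% of T-gated droplets. As sequenced it was in 55.1% and 62.2% of macrophage-gated and 5.93% and 4.88% of T-gated droplets. Slc34a1 had another relation between these droplets: in proximal type tubule-like droplets Gatm stood at 416 and 380.5 CPM, below the 1978 and 1402 CPM of Slc34a1, whereas in macrophage-gated droplets Slc34a1 was at 13.4 and 13.2 CPM.

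Ass1, which joins citrulline and aspartate on the way to arginine, had the opposite order between the leukocyte gates. It stood at 495 (428 to 569) and 665 (596 to 740.4) CPM in tubule-like, 19.1 and 14.7 CPM in macrophage-gated, 64.5 and 31.3 CPM in monocyte-gated, 20.9 and 26.6 CPM in dendritic-gated and 113 (104 to 122) and 97.4 (84.3 to 112) CPM in T-gated droplets. It was 30.3% and 21.6% of member UMIs in T-gated droplets. Ass1 was lower in macrophage-gated than in T-gated droplets by the fold rule, at log2 ratios of −2.08 and −2.12. At 1000 UMIs per droplet it was found in 47.4% and 41.9% of tubule-like, 1.62% and 1.93% of macrophage-gated and 8.004% (6.35 to 9.93) and 9.35% (6.85 to 12.4) of T-gated droplets.

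Within the T gate, Ass1 differed by subset. It stood at 224 and 205 CPM in the 71 and 21 droplets with Foxp3, the regulator of regulatory T cells, which overlap with those holding Cd4. Droplets with Cd4 and without Cd8 genes (301 and 123) held it at 129.6 and 142 CPM, those with Cd8 genes and without Cd4 (293 and 173) at 58.5 and 46.7 CPM, and those with neither at 136 and 106 CPM. The Cd8 droplets were thus lowest in both hashed samples. Gpx3, the third member measured between macrophage-gated and T-gated droplets, met the rule in neither direction. At 1000 UMIs per droplet it was found in 73.7% and 72.1% of tubule-like, 15.9% and 13.7% of macrophage-gated and 14.8% and 16.5% of T-gated droplets.

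The promoter windows of Slc34a1, Gatm and Ass1 are shown for a gene far higher in tubule-like droplets than in the macrophage and T gates, and for the 2 genes that stood apart in a leukocyte gate. Tubule-like droplets held 58.5% of the 1623 Slc34a1 UMIs in kept droplets. Each is the 300-base window around a RefSeq gene start on GRCm38.p6, read 5′ to 3′ on the strand of the gene, and capitals mark the 6-base half-site of HNF1 factors, GTTAAT or its reverse complement ATTAAC, which proximal tubule and liver promoters use. The Slc34a1 window lies at chr13:55399398-55399697 on the plus strand, Gatm at chr2:122611228-122611527 on the minus strand and Ass1 at chr2:31470020-31470319 on the plus strand, and each ends 50 bases past the RefSeq start. The Slc34a1 window lies wholly inside the gene as the GENCODE annotation of GRCm38 has it (chr13:55398187-55415592), downstream of that start, whereas the Gatm and Ass1 windows span the annotated starts of their genes (chr2:122594467-122611303 and chr2:31470207-31520672).
Slc34a1: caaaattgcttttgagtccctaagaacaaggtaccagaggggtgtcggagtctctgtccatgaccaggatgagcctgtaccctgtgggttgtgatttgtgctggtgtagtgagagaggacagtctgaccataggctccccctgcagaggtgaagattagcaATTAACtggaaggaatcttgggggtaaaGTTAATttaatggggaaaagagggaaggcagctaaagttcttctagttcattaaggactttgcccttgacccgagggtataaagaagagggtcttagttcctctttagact
Gatm: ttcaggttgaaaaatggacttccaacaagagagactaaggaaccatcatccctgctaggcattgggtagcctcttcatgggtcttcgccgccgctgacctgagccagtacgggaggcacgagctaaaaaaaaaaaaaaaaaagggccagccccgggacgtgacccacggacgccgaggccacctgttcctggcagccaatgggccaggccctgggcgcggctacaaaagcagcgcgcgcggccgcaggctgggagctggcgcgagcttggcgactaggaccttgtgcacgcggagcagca
Ass1: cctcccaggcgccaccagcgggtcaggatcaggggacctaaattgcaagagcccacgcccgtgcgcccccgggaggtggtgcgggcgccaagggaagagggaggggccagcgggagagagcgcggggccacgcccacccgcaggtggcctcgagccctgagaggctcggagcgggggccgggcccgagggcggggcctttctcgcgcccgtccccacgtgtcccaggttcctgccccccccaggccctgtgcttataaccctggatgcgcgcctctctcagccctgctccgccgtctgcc
Slc34a1 held a match on each strand, starting at bases 162 and 190 of the window. Gatm and Ass1 held none, which says only that these letters are not in those windows. The window of Gpx3, the most abundant member in tubule-like droplets, is not printed and also held none. The half-site thus set Slc34a1, but not Gpx3, apart from Gatm and Ass1. The 28 members found in the RefSeq table had 33 windows, of which 8 (24.2%) held the half-site on either strand, 1 each for Acsm2, Havcr1, Miox, Pck1, Slc22a6, Slc22a8, Slc34a1 and Umod, against 7.10% of all 32851 windows. The HNF4 motif CAAAGTCCA was in none of the 33 and in 0.475% of all windows, and the PU.1 core AGAGGAAG, a motif of myeloid promoters, was in 3 (Aqp2, Fbp1 and Fxyd4) and in 4.55% of all. The motifs were searched on both strands, and none contains another. A match is no measure of binding.

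In the deeper droplets of the macrophage and T gates the 32 members other than Gatm and Ass1 did not keep pace with total UMIs. When macrophage-gated droplets were split into 4 equal bins of depth, with medians of 3276.5, 5753, 7582.5 and 10959 UMIs, a mean droplet held 1.61, 1.81, 2.17 and 2.71 UMIs of the 32, so that the rate per 10000 fell from the shallowest to the deepest bin, at 5.25, 3.17, 2.85 and 2.27. In the 4 T-gated bins, with medians of 2247, 3168, 4237 and 8268.5 UMIs, a mean droplet held 1.15, 1.42, 1.33 and 1.54, at rates of 5.52, 4.47, 3.08 and 1.49. The number per droplet thus varied less than the depth in both gates. Dendritic-gated droplets did not follow this order throughout: in bins with medians of 6121.5, 8541, 9995 and 12752 UMIs a mean droplet held 1.62, 1.70, 1.61 and 3.75, at rates of 2.87, 2.01, 1.60 and 2.78. The rise in the deepest bin rested on droplets with 10 or more UMIs of the 32. Without those, a choice made after the data were seen, the means were 1.49, 1.61, 1.61 and 1.68. The dendritic-gated rates then fell with depth, at 2.64, 1.90, 1.60 and 1.25. Monocyte-gated bins, with all droplets kept, had rates of 7.74, 3.31, 2.27 and 1.92. Gatm did otherwise in macrophage-gated droplets, at 0.596, 1.08, 1.37 and 2.16 UMIs per droplet and 195, 188, 179 and 181 CPM. Ass1 in T-gated droplets also rose per droplet, at 0.178, 0.220, 0.494 and 1.26 UMIs per droplet and 85.2, 69.2, 114 and 123 CPM.

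**Figure D4:**
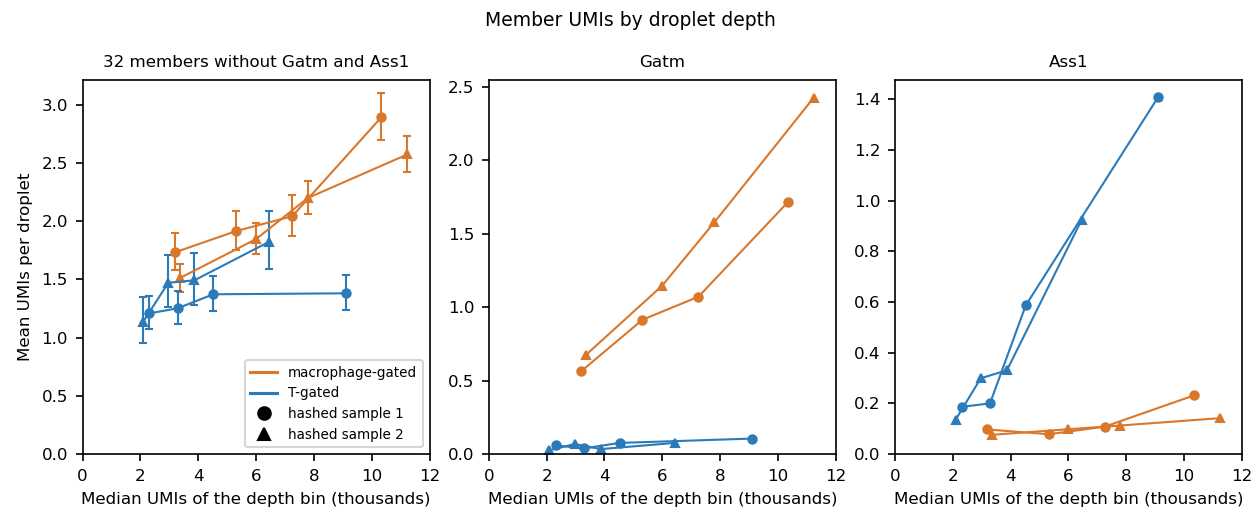
Mean UMIs per droplet of the 32 members, of Gatm and of Ass1 against the median depth of each of 4 bins, in units of 1000 UMIs, for macrophage-gated and T-gated droplets of hashed samples 1 (circles) and 2 (triangles); error bars, drawn for the 32 members, are exact 95% Poisson intervals. Gatm in macrophage-gated and Ass1 in T-gated droplets climb with depth, to 2.16 and 1.26 UMIs in the deepest bin of both hashed samples together, while the sum of the 32 is flatter.

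Most leukocyte droplets held few of the 32 transcripts. At least 1 UMI was seen in 100% of tubule-like, 80.1% of macrophage-gated, 77.6% of monocyte-gated, 76.4% of dendritic-gated and 69.6% of T-gated droplets. At least 10 were seen in 81 of 85 tubule-like droplets (95.3%), in 27 macrophage-gated (0.998%), 3 monocyte-gated (1.02%), 8 dendritic-gated and 6 T-gated droplets (0.424%). At least 100 were seen in 53 tubule-like droplets (62.4%), in 1 macrophage-gated droplet and in 1 dendritic-gated droplet, and in no monocyte-gated or T-gated droplet.

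Those few droplets weighed unevenly on the gates. The 27 macrophage-gated droplets, 13 and 14 by hashed sample, held 14.2% of the gate's UMIs of the 32 members, the 6 T-gated droplets 6.74%, the 8 dendritic-gated droplets 27.7%, 17 ungated droplets 28.5% and 3 of the 24 neutrophil-gated droplets 46.1%. In the 27 macrophage-gated droplets the independent renal genes stood at 20.6 per 10000, against 2.58 in the rest of the gate. Their median depth was 8809 UMIs against 6599.5 in the rest, their median doublet score 0.0611 against 0.0478, their mitochondrial share 2.86% against 2.17% and their C1q level 179 against 185 per 10000. In the 6 T-gated droplets the renal genes stood at 32.4 per 10000, against 2.09 in the rest. Of the 27 macrophage-gated droplets 11 held 20 or more renal UMIs per 10000 and 15 held at least 5 of the renal genes, so the level over the 27 rests on part of them. Whether such droplets are doublets or engulfing cells was not tested. Without droplets of 10 or more, an alternative chosen after the data were seen, all 34 members stood at 4.54 per 10000 in macrophage-gated and 3.76 in T-gated droplets.

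**Figure D5:**
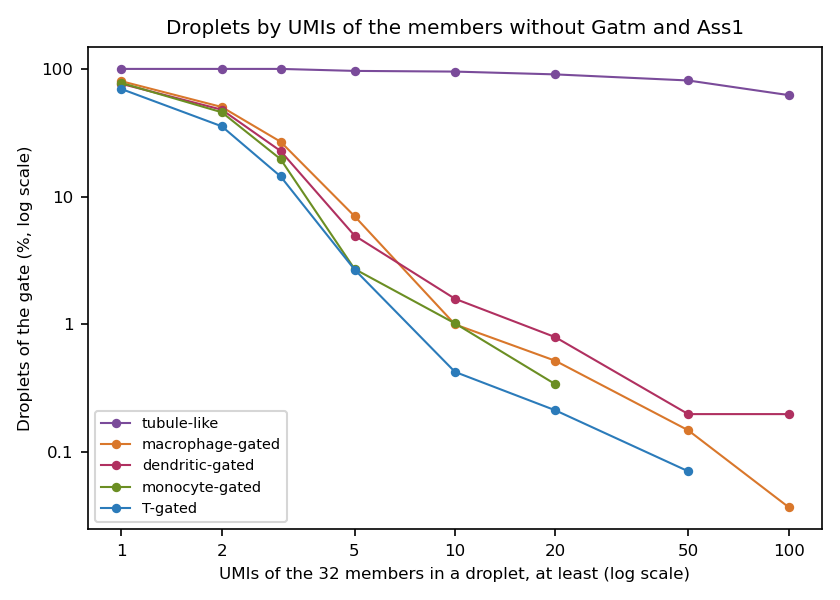
Share of the droplets of each gate, in percent on a log axis, that held at least the number of UMIs of the 32 members given on the horizontal axis (log scale), for tubule-like, macrophage-gated, dendritic-gated, monocyte-gated and T-gated droplets of both hashed samples. The tubule-like curve stays at 95.3% at 10 UMIs, where the macrophage-gated curve is at 0.998% and the T-gated curve at 0.424%.

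Macrophages with more nephron RNA were also compared with macrophages without. After thinning to 1000 UMIs, 53 and 85 macrophage-gated droplets held 2 or more UMIs of the 32 members, and 773 and 1189 held none. Members were higher by this choice, so only other genes are read. Of 2692 genes measured 29 were higher and 22 lower, which is 1.08% and 0.817%, and the higher ones included the members Wfdc2, Gpx3 and Pck1 and the renal genes Slc4a4 and Fxyd2 of the gate list. Of 22 genes of engulfment, 9 were measured and none was higher or lower, and of 15 lysosomal genes 14 were measured and none was higher or lower. All 22 engulfment genes together summed to 3795 and 3369.7 CPM in droplets with 2 or more, against 2560.0 and 2824 CPM in those with none.

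Some macrophage genes did pass the fold rule. F13a1, the coagulation factor XIII subunit of tissue macrophages, stood at 497 and 351 CPM in droplets with 2 or more nephron UMIs, against 223 and 228 CPM in those with none. Nrp1 reached 194 and 179.6 CPM in the first set, against 91.1 and 99.6 CPM in those with none. Spp1, which encodes osteopontin and is made by injured tubules as well as macrophages, stood at 646 and 1126 CPM, against 270.0 and 366 CPM. Among the lower genes, Ear2 had 10.96 and 5.79 CPM, against 90.8 and 90.5 CPM, and the chemokine gene Cxcl2 at 58.4 and 119.7 CPM, against 317 and 532 CPM. Median depths were 4653 and 5574 UMIs in droplets with 2 or more and 6670.0 and 7172 in those with none, and the part of depth was not tested.

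The series was designed around macrophages low in MHC class II, so the macrophage gate was split at 40 UMIs per 10000 of 3 class II genes (H2-Aa, H2-Eb1 and H2-Ab1). The 190 and 630 MHC II-low droplets held 5.73 (5.35 to 6.14) and 5.21 (5.01 to 5.42) member UMIs per 10000, against 4.75 and 4.72 in the 882 and 1003 droplets above the split. The 32 members without Gatm and Ass1 stood at 3.92 and 2.87 in the MHC II-low droplets, against 2.99 and 2.72 in the MHC II-high droplets, so that the gap was small in hashed sample 2. In hashed sample 1, 7 of 190 MHC II-low droplets held 10 or more UMIs of the 32, against 6 of 882 MHC II-high droplets. The median droplet rate of all 34 was 4.22 in MHC II-low against 4.28 in MHC II-high droplets there. In hashed sample 2 these medians were 4.69 and 4.13. Gatm was at 161 and 219 CPM in the MHC II-low droplets, against 157 and 186 CPM in the MHC II-high droplets. Gpx3 was at 216 and 146 CPM in the MHC II-low droplets, against 142 and 114 CPM in the MHC II-high droplets. Neither of the 2 members measured in this comparison passed the fold rule, where 2.5% of all genes were higher and 1.57% lower in MHC II-low droplets.

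Of genes outside the list, the 10 with the largest mean log2 ratio of tubule-like over macrophage-gated droplets ranged from 5.79 down to 4.88 and included Klk1, Atp1b1, Car15, Fxyd2, Clu, Spp1, Ndrg1, Ly6a and Mal. Fxyd2 was part of the gate. Klk1, a kallikrein of the distal nephron, stood at 688 and 1354 CPM in tubule-like and 8.42 and 6.87 CPM in macrophage-gated droplets. Spp1 stood at 8571 and 16704 CPM in tubule-like and 271 and 449 CPM in macrophage-gated droplets. Among all genes higher by this ratio, Lcn2 ranked 1, Wfdc2 4, Slc34a1 5, Slc12a1 8, Umod 9, Pck1 11 and Gpx3 12, while Cubn ranked 227.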

How the data were processed

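Single-cell RNA-seq of CD45-sorted kidney cells was analysed from 1 capture of 2 hashed samples. The deposited values are raw UMI counts per gene and barcode, made, per the file headers, with Cell Ranger 6.1.1, from barcodes the authors had filtered and assigned to hashtags 301 and 305. Seurat 4.3.0, Cell Ranger 6.0 and the mm10 build are given in the submitters' processing notes. The matrices held 20743037 and 25314154 UMIs in 3315 and 3700 barcodes, with 0 barcodes shared. The tissue section of the series has spot positions in the files used here, and its expression was not analysed here. Label words that name human kidneys and mesenchymal stem cells were not used, since the reference and genes are those of mouse and the sort was on CD45. The title and the time label differ on the week, and neither the week nor the number of animals was used.

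Barcodes with under 200 genes or under 500 UMIs (8) or over 10% mitochondrial UMIs (406) were removed. A further 45 were removed as doublets, 40 by Scrublet (0.606% of filtered cells) and 6 by hashtags, where the top tag had under 10 counts or under 2 times the next. Macrophage-gated and T-gated droplets also had under 3 B cell UMIs, and the macrophage gate under 3 T cell UMIs. Droplets were neither clustered nor named from members for the main results. UMIs were summed per gate and hashed sample. Cells are not replicates, so gates were compared without tests or p-values. Intervals are exact (Poisson for sums, Clopper-Pearson for shares, conditional for ratios) and counting error is all they cover. Log2 ratios have 10 CPM added, which understates differences of low genes. For shares of droplets, each droplet was thinned to 1000 UMIs. Members named in full reached 100 CPM in tubule-like droplets of both hashed samples, or had a leukocyte level relative to the tubule-like one at least 3 times the median of the members measured. This rule named 18. The members, gene lists and gates were chosen with earlier results of these data known. The fold rule was tested on simulated data. Alternatives were other gate levels, no mitochondrial filter, doublets kept, clusters (leidenalg 0.10.2), other pseudocounts and minimums, edgeR 4.0.16 TMM factors and leaving out each hashed sample. Promoter windows are from RefSeq on GRCm38.p6. Versions were Python 3.11.15, numpy 2.4.6, scipy 1.17.1, pandas 2.3.3, scanpy 1.11.5 and R 4.3.3. The values of 1 gene that is no member are not reported here.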

Additional observations from a re-analysis of the deposited data

Results flagged for a closer look

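Barcodes removed for over 10% mitochondrial UMIs were outside the comparisons and, when summed, were rich in nephron transcripts. They held 38.0 and 67.7 member UMIs per 10000 by hashed sample, and 53.5 (52.0 to 55.0) over both, against 160.4 in kept tubule-like and 4.93 in macrophage-gated droplets. Gpx3 stood at 2039.75 and 3452 CPM in them, the other renal genes at 24.0 and 37.2 UMIs per 10000, and 20 of the 406 barcodes met the tubule-like gate. The sums rested on part of the barcodes. The median barcode held 2 member UMIs, and the median rate was 12.9 per 10000. Of the 406, 31 held 10 or more UMIs of the 32 members without Gatm and Ass1. The highest barcode held 716 of the 4368 UMIs of these 32 members.

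A further hashtag, which marks neither hashed sample in the deposited run settings, had 270 counts in kept droplets, of which 261 fell in hashed sample 1 and 9 in hashed sample 2. Its median per droplet was 0 in both hashed samples, and the highest count in a droplet was 2 in hashed sample 1 and 1 in hashed sample 2.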

How the results depend on the processing

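No called value of a member changed sign under the alternatives run. The direction of uncalled ratios between macrophage-gated and T-gated droplets did differ between settings for some members, such as Lcn2, at 0.09 with the tubule-like gate at 20 and −0.38 with it at 100. TMM factors turned the sign of the median over all genes in tubule-like over macrophage-gated droplets. Values per 10000 UMIs are given for tubule-like, macrophage-gated and T-gated droplets. With the tubule-like gate at 20 UMIs per 10000 they were 129, 4.72 and 3.80, and with the gate at 100 they were 177, 5.32 and 5.30, with a ratio of macrophage-gated to T-gated droplets of 1.00. With no mitochondrial filter they were 168, 5.04 and 4.12. Without Gpx3, the most abundant member, they were 107, 3.55 and 2.68, with a ratio of 1.32. With clusters in place of gates, tubule-like droplets were at 120.4 and macrophages at 5.10, and a C1q gate of 200 gave macrophages at 5.04. Leaving out each hashed sample gave 155 to 167 for tubule-like, 3.72 to 4.50 for T-gated droplets and 1.09 to 1.33 for the ratio. With no filter on low values, 2 members in place of 1 were higher in macrophage-gated than in T-gated droplets, the added one being Slc13a3. Chosen after seeing the data, leaving out droplets with 10 or more UMIs of the 32 members gave macrophage-gated 4.54 and T-gated 3.76, leaving out Gatm and Ass1 gave 2.93 and 2.74 with a ratio of 1.07, and droplets of 3000 to 6000 UMIs gave 5.74 and 4.42. Members higher in tubule-like than in macrophage-gated droplets numbered 17 with clusters to 27 without hashed sample 2. The cause of these shifts was not tested beyond what each setting removes. Members with few UMIs, such as Hpd and Slc7a13, were not detectable as different at this depth. No paired analysis was possible because no test was made: each ratio was already taken within a hashed sample, and the labels do not make the hashed samples replicates.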

Other observations

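Kap was concentrated in a pair of droplets of hashed sample 2 that lay outside the tubule-like gate. Of 241 Kap UMIs in all kept droplets, 92 were in 1 ungated droplet of 19528 UMIs and 69 in 1 macrophage-gated droplet of 7342 UMIs. The same droplets held 22 and 8 UMIs of Havcr1, out of 132 spread over 66 kept droplets. These droplets were noticed after the values were seen. Another 10 Havcr1 UMIs lay in 1 monocyte-gated droplet. In all, 13 kept droplets outside the tubule-like gate held the 34 members at 100 or more UMIs per 10000.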
